A study of Mus musculus with 12 samples.

Results

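Osteoblasts and endothelial cells sorted from tumor-bearing long bones were compared gene by gene, 3 arrays against 3, to see how ligands, receptors, matrix and metabolism were divided between both cell types beside the tumor. The 6 arrays were chosen by their sample titles from the 12 of the series, and the genes are all 19937 that have a probe set annotated with a single gene symbol. Of these, 14217 exceeded a filter on dim values and were tested. All mice were female C57BL/6. Tumor-bearing mice had received 500000 EO771 cells, a mouse mammary cancer line of that strain, through the heart, and growth in the long bones was followed by bioluminescence for about 2 weeks. Seeding through the heart leaves out the escape of cancer cells from a primary tumor. Osteoblasts were the cells negative for GFP, Ter119, CD45, Sca1 and CD31 and positive for CD51, an integrin chain that other skeletal stromal cells can carry too. Endothelial cells were negative for GFP, Ter119 and CD45 and positive for Sca1 and CD31. Each array held amplified RNA of 5000 cells, and the sources used here do not give how many mice stood behind an array. The other 6 arrays, 3 per cell type from mice without tumor, entered the same model and serve as a reference in the tumor-free comparison.

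Osteoblasts build bone: they secrete type I collagen, modify and crosslink it outside the cell, and mineralise it with the help of alkaline phosphatase. Endothelial cells line the marrow sinusoids and capillaries, hold the vessel wall together with junction proteins, rest on a basement membrane, and let leukocytes and nutrients pass. In bone both are known to exchange signals such as VEGF, PDGF, Notch and slit ligands, and matrix proteins of one cell type can bind receptors of the other.

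Values are the authors' log2 intensities, and a difference is the mean of the 3 osteoblast arrays minus the mean of the 3 endothelial arrays, so that positive values are higher in osteoblasts. A gene was called when its limma p-value, adjusted by Benjamini-Hochberg over all 14217 genes, was under 0.05. The model was refitted 12 times with 1 array missing, and every called gene named below kept its call each time unless a loss is stated beside it. In sorted bulk samples, fewer cells of a type and less RNA per cell cannot be told apart.

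The labels were checked against marker lists. Pecam1, which encodes the sort marker CD31, was at 6.17, 6.90 and 6.68 in osteoblasts and at 10.68, 10.99 and 10.80 in endothelial cells (difference -4.24, SE 0.22, adjusted p = 6.5e-07). The groups were far apart. Itgav, which encodes CD51, was at 8.75, 8.87 and 8.94 in osteoblasts and 8.22, 7.24 and 8.33 in endothelial cells and did not pass (0.93, adjusted p = 0.172). Ptprc, which encodes CD45, stood at 5.63, 5.52 and 7.28 against 5.18, 5.48 and 5.19 and did not pass either (adjusted p = 0.286). Of 30 tested endothelial identity genes, 27 were higher in endothelial cells and 0 in osteoblasts, and of 18 tested osteoblast and bone matrix genes, 13 were higher in osteoblasts and 0 in endothelial cells. Among the 3 endothelial genes that did not pass was Vwf, the clotting carrier of many vessels (6.63, 7.18 and 7.22 in endothelial cells, 6.51 to 6.67 in osteoblasts). The bone-forming markers were clear: Sp7, a transcription factor of the osteoblast lineage, was at 8.75, 8.51 and 7.73 against 5.56, 5.64 and 6.11, and Alpl, alkaline phosphatase, at 10.47, 10.51 and 9.77 against 6.47, 6.38 and 5.81.

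Markers of other cells were present too. The osteoblast arrays carried cartilage genes: 15 of 19 tested chondrocyte markers were higher in osteoblasts, with a median difference of 3.35. Their median level was 9.88, 10.24 and 8.25 in osteoblast replicates 1, 2 and 3 and 5.78 to 5.97 in the endothelial arrays. Fibroblast and tendon markers had medians of 8.08, 8.27 and 7.52 against 5.70 to 6.02, with 10 of 15 higher in osteoblasts. Osteoblast replicate 3 stood apart, being lowest in the cartilage, bone and fibroblast medians and highest in proliferation genes (7.82, against 6.75 and 7.20). In that array Krt8, a keratin of simple epithelia, was at 10.13, against 6.95 and 6.79 in the other two osteoblast arrays and 6.78 to 6.86 in endothelial cells, while the other 8 tested epithelial and mammary markers lay between 5.34 and 6.31 there. Krt18, the usual partner of Krt8, was at 5.77. The 5 epithelial and mammary markers below the filter were at 4.43 to 5.35 in that array. Met, a receptor gene also below the filter and outside that list, was at 7.87 in it. In the other osteoblast arrays Met was at 3.90 and 4.10, and in endothelial cells at 3.82 to 4.12. Of 12 pericyte and smooth muscle markers, 3 were higher in endothelial cells, among them the channel genes Kcnj8 and Abcc9 (-3.97 and -3.31), 1 was higher in osteoblasts, Pdgfrb (1.66), and the list had a median difference of -0.01. Without osteoblast replicate 2 or 3, 2 of them were higher in osteoblasts. Markers of marrow stromal niche cells and adipocytes were bright in both cell types, with array medians of 8.998, 8.39 and 8.47 in endothelial cells and 8.41, 8.05 and 7.47 in osteoblasts. Of these 15 markers 3 were higher in endothelial cells and 12 did not pass, and their median difference was -0.05. Without tumor-free osteoblast replicate 1, 1 was higher in osteoblasts. Adipoq, the adipocyte hormone adiponectin, was at 10.73, 9.58 and 10.23 in endothelial cells and 10.43, 10.34 and 9.81 in osteoblasts. Pan-haematopoietic and neutrophil markers had 0 of 11 called each by limma, with 2 and 0 at an unadjusted p under 0.05, beside 3236 of all 14217 genes. Without tumor-free osteoblast replicate 2 or 3, 1 pan-haematopoietic marker was called higher in osteoblasts, and without the latter also 1 in endothelial cells. Whether these markers came from other cells or from the sorted types themselves was not tested. Their part in the results below was not tested either, apart from the fits without single arrays.

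**Figure D1:**
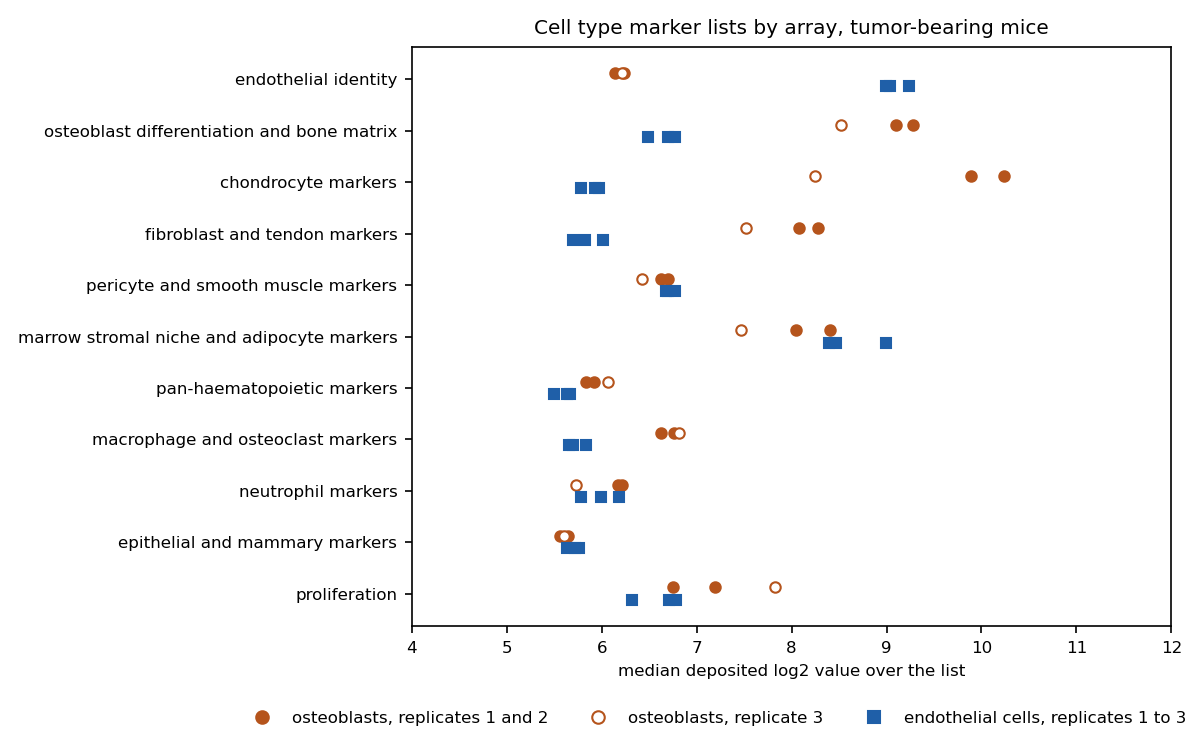
Median deposited log2 value of each marker list (horizontal axis) in each of the 6 arrays of tumor-bearing mice, with osteoblast arrays as circles and endothelial arrays as squares. The open circle, osteoblast replicate 3, lies at 8.25 for chondrocyte markers, below 9.88 and 10.24 in the other osteoblast arrays, and at 7.82 for proliferation genes, above them.

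The cell types differed in 1503 of the 14217 genes, 10.6% of those tested, with 695 higher in osteoblasts (4.89%) and 808 higher in endothelial cells (5.68%). The 3 arrays of one cell type lay wholly above those of the other in 3994 genes (28.1%), including 1500 of the 1503 called. Called differences had a median size of 1.26 on the log2 scale, 1000 were at least 1, and 146 were at least 3, of which 77 were higher in osteoblasts and 69 in endothelial cells. The median difference over all genes tested was -0.03. Some genes crossed from dim to bright: 122 genes exceeded the array's 40th percentile in all 3 osteoblast arrays and in 0 of the endothelial arrays, and 101 did the reverse. Without osteoblast replicate 3, 1333 genes were called.

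The widest differences toward osteoblasts were in matrix genes. Lum, which encodes the collagen-binding proteoglycan lumican, was at 11.56, 11.17 and 10.57 in osteoblasts and at 4.38, 4.06 and 4.20 in endothelial cells, a difference of 6.89 (SE 0.21, adjusted p = 1.62e-08). Postn, periostin of the periosteum, followed with 11.87, 11.76 and 11.47 against 6.13, 6.07 and 5.32 (5.86). Fap, a protease of activated stroma, had 11.70, 11.49 and 11.31 against 7.06, 5.46 and 5.62 (5.45). Osteoblast replicate 3 was the lowest osteoblast array in all 3. The next were Prg4 (lubricant of joints, 5.14), Cnmd (chondromodulin of cartilage, 5.04), Mia (a cartilage secreted protein, 4.99), Hapln1 (link protein of aggrecan, 4.96), Chad (a cartilage leucine-rich protein, 4.83), Col12a1 (4.83), Mmp13 (collagenase 3, 4.83), Phex (an osteocyte regulator of phosphate, 4.80) and Fn1 (fibronectin, 4.76). In the 5 cartilage and joint genes of this group, osteoblast replicate 3 was the lowest osteoblast array, for example Hapln1 at 7.47 against 10.29 and 10.63. All 3 endothelial arrays stayed below it, at 4.36, 4.51 and 4.63.

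The widest differences toward endothelial cells were in vessel genes. Emcn, the sialomucin endomucin, was at 4.15, 5.19 and 4.79 in osteoblasts and 11.09, 11.25 and 10.94 in endothelial cells (-6.39, SE 0.23, adjusted p = 4.52e-08). Il13ra2, a decoy receptor of interleukin 13, had 3.52, 3.48 and 4.27 against 10.16, 9.92 and 10.16 (-6.32). Gpm6a, a membrane glycoprotein, had 5.78, 5.83 and 5.57 against 11.91, 11.68 and 11.38 (-5.93). The endothelial arrays lay close together in these genes, and no osteoblast array came near them. Then came Cd36 (fatty acid translocase and thrombospondin receptor, -5.86), Cdh5 (VE-cadherin, -5.77), Ubd (a ubiquitin-like modifier, -5.64), Adgrl4 (an adhesion receptor of vessels, -5.52), Kdr (VEGF receptor 2, -5.48), Tek (the angiopoietin receptor, -5.33), Rasgrp3 (a Ras activator, -5.32), Gimap4 (a GTPase, -5.25) and Clca3a1 (-5.25). These 24 genes were chosen as the widest called differences without overlap, so that their separation is no result of its own. All 24 remained called in each of the alternatives tried.

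**Figure D2:**
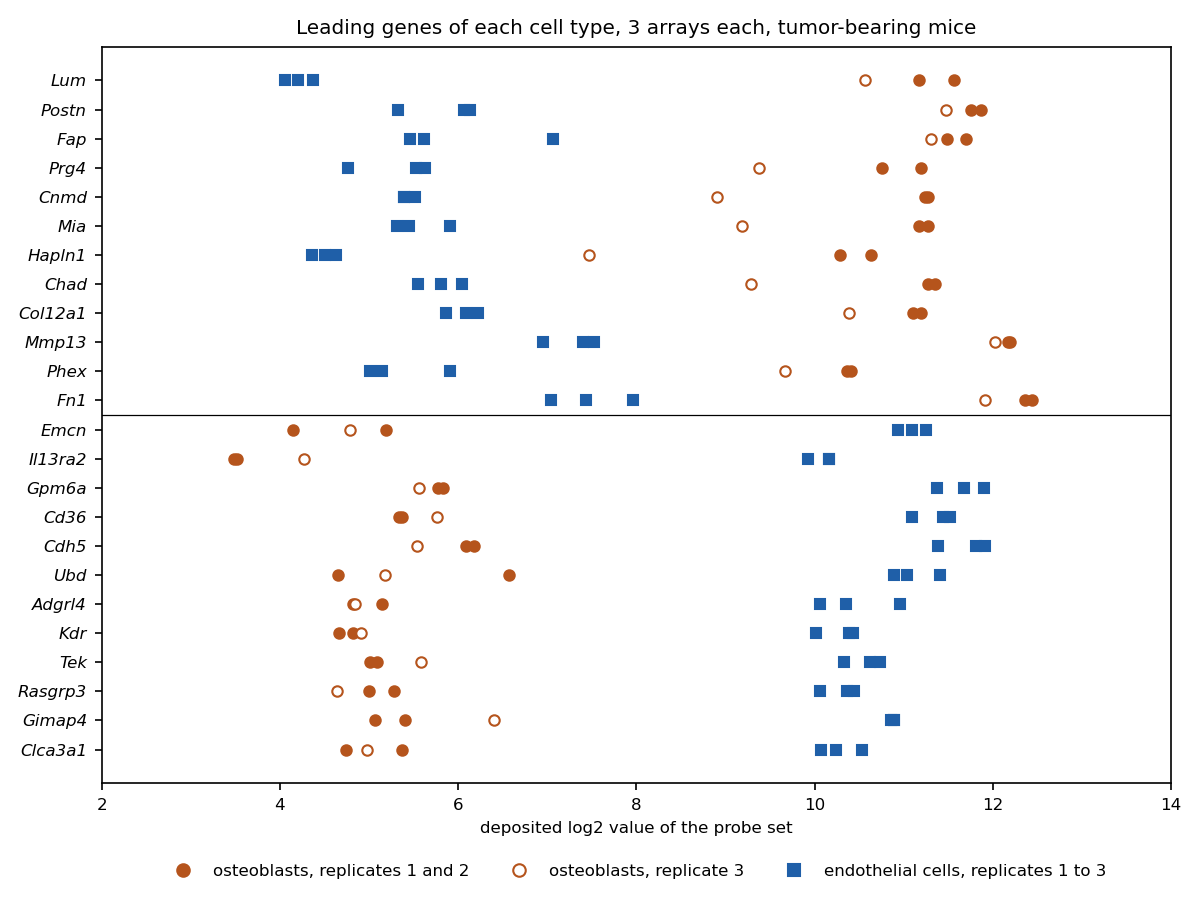
Deposited log2 value (horizontal axis) of the 12 genes with the widest called difference in each direction, 1 point per array, osteoblasts as circles and endothelial cells as squares. The genes were chosen for not overlapping, and the open circle of osteoblast replicate 3 is the lowest osteoblast value in Prg4, Cnmd, Mia, Hapln1 and Chad.

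The start-site regions of leading genes were read for short words of factors known in these lineages: TGTGGT (RUNX), CCGGAA or CAGGAA (ETS family), for GATA factors the letters AGATAA, and TGACGTCA (cyclic AMP response element), each on both strands and counted whether or not it overlaps another word. RefSeq promoters on GRCm38.p6, 250 bases before to 50 after a start, were found for 11205 of the tested genes. The leading genes Lum, Fap, Prg4, Col12a1, Fn1 and Cdh5 had no such promoter and were not read. RUNX words were in 12.8% of all 14107 promoters, in 11.3% of those of genes higher in osteoblasts and in 15.4% of those higher in endothelial cells, and ETS words in 44.9%, 37.7% and 42.3%. GATA words were in 6.9%, 6.9% and 6.4% and cyclic AMP elements in 2.8%, 1.7% and 1.5%. RUNX words were thus rarer in promoters of genes higher in osteoblasts than in those of genes higher in endothelial cells. ETS words and cyclic AMP elements were rarer in both called sets than in all promoters. The median count of the letters CG per promoter was 19, 17 and 15 in the same order. Differences between these shares were not tested, and a match is only a description of the letters. For the first 2 leading genes of each cell type whose region held the RUNX or the ETS word, the regions are shown 5′ to 3′ with the matched word in capitals: Hapln1 (chr13:89540386-89540685, plus strand) and Mmp13 (chr9:7272264-7272563, plus strand), higher in osteoblasts, with the RUNX word, and Emcn (chr3:137340828-137341127, plus strand) and Il13ra2 (chrX:147429143-147429442, minus strand), higher in endothelial cells, with the ETS word.
Hapln1: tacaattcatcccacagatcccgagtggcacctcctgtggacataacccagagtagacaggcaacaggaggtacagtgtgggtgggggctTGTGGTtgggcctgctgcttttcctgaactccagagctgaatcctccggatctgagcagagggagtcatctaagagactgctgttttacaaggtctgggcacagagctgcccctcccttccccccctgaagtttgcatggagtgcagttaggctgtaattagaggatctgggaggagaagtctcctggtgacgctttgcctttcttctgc
Mmp13: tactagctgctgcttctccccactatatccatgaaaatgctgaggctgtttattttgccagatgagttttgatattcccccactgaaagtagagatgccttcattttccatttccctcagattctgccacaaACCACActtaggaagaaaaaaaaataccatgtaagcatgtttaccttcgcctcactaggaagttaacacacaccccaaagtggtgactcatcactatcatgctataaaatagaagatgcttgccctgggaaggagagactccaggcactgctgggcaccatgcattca
Emcn: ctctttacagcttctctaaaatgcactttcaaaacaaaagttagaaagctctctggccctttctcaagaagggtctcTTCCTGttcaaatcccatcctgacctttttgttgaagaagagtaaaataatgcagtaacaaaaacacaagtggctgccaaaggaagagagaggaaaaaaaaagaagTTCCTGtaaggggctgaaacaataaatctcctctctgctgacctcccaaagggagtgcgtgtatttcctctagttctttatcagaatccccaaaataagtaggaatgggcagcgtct
Il13ra2: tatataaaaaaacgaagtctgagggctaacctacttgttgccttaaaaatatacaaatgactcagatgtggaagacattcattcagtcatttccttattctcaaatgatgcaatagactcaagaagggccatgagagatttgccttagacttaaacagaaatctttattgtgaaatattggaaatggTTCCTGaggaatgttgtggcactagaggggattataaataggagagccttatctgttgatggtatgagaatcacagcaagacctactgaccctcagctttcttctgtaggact
The RUNX word began 160 bases before the start in Hapln1 and 118 before it in Mmp13, and the ETS words 173 and 67 bases before it in Emcn and 63 in Il13ra2. Only the RUNX word was marked in osteoblast genes and only the ETS word in endothelial genes, so that the division of words follows from the choice. Of the leading osteoblast genes that were read, Postn, Hapln1, Chad and Phex also held an ETS word, unmarked in the Hapln1 region above. Of the leading endothelial genes that were read, Gimap4 held a RUNX word.

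Matrix genes were called more often on the osteoblast side. Over 8 lists of matrix proteins and the enzymes that process them, 68 of 171 tested genes were higher in osteoblasts (39.8%) and 15 in endothelial cells (8.8%), with a median difference of 0.52. Among fibrillar collagens 8 of 11 were higher in osteoblasts. Col1a1, the main chain of bone collagen, was at 11.27, 11.05 and 10.84 against 7.46, 7.42 and 7.69 (3.53, SE 0.16), and its partner chain Col1a2 at 10.97, 10.97 and 10.73 against 7.09, 7.02 and 7.17 (3.80). Col5a2 (1.90), Col3a1 (1.13) and the cartilage chain Col11a1 (2.68) followed. Col11a1 was at 9.77, 10.04 and 9.02 in osteoblasts, again lowest in replicate 3. Of 22 other collagens outside the basement membrane, 8 were higher in osteoblasts, led by Col12a1 and the beaded-filament chains Col6a1 (2.42) and Col6a3 (1.78), with Col10a1 of hypertrophic cartilage at 3.48.

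Proteoglycans and matricellular proteins followed the collagens. Small leucine-rich proteoglycans, which bind collagen fibrils and set their spacing, had 9 of 15 higher in osteoblasts and 0 in endothelial cells (median 2.48). Aspn, asporin, was at 11.54, 11.21 and 10.81 against 7.02, 6.43 and 6.29 (4.60). Omd (4.41), Dcn, decorin (4.35), and Fmod (4.09) were similar, while Bgn, biglycan, was bright in both cell types (11.31, 11.23 and 10.64 against 10.61, 9.98 and 10.30) and did not pass (0.76, adjusted p = 0.0515). Of 30 matricellular and large matrix proteins, 16 were higher in osteoblasts and 2 in endothelial cells. Tnc, tenascin C, was at 11.33, 11.26 and 11.21 against 7.05, 6.67 and 6.15 (4.65), and Vcan, versican, differed by 3.23. The pair of exceptions were the multimerins of vessels: Mmrn2 was at 5.82, 5.64 and 5.88 against 10.12, 10.42 and 10.17 (-4.46), and Mmrn1 differed by -3.74.

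Of 22 tested basement membrane genes 5 were higher in endothelial cells and 0 in osteoblasts, and their median difference was -0.09, near that of all genes. Nid1, the linker nidogen, was at 6.82, 6.28 and 6.39 in osteoblasts and 9.03, 9.10 and 8.75 in endothelial cells (-2.47, SE 0.17). The type IV collagen chains Col4a1 and Col4a2 differed less, by -0.72 and -1.10, and the laminin chain Lamc1 by -0.78. For Col4a1 the closest arrays were 7.46 in osteoblasts and 7.75 in endothelial cells. Without osteoblast replicate 3, 1 basement membrane gene was called higher in osteoblasts. Elastic fibre genes gave 3 higher in osteoblasts of 16, led by Ltbp1 (1.51) and Fbn2 (1.26), and 6 without osteoblast replicate 3.

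Enzymes that mature collagen were divided by enzyme. Of 25 genes 14 were higher in osteoblasts and 2 in endothelial cells, with 9 higher in osteoblasts when osteoblast replicate 2 was left out. Plod2, the lysyl hydroxylase of the collagen telopeptides, was at 11.04, 11.09 and 10.66 against 7.12, 6.95 and 5.66 (4.35). Plod1, the hydroxylase of the helix, was at 7.80, 7.77 and 7.92 against 8.70, 8.81 and 8.43 (-0.82, adjusted p = 0.0051). The lysyl hydroxylases thus lay on opposite sides, with no overlap in either gene. Lox, the crosslinking oxidase, differed by 3.33, the procollagen C-proteinase Bmp1 by 1.85, and its enhancers Pcolce and Pcolce2 by 2.46 and 4.28. Tgm2, a transglutaminase, was higher in endothelial cells (-1.46). Genes of the secretory pathway that carry collagen out had 13 of 30 higher in osteoblasts and 0 in endothelial cells, among them the coat gene Sec24d (1.43) and Creb3l1, a collagen secretion factor (2.58).

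Of 30 matrix proteases and inhibitors, 10 were higher in osteoblasts, 5 in endothelial cells and 15 did not pass. Among those higher in osteoblasts were Mmp13 at 12.19, 12.17 and 12.02 against 7.53, 6.96 and 7.40, Mmp16 (3.77), the gelatinases Mmp2 (3.70) and Mmp9 (3.01), and the inhibitor Timp1 (4.74). The 5 higher in endothelial cells included aggrecanases of the ADAMTS family: Adamts5 was at 8.57, 8.39 and 7.82 against 10.68, 10.29 and 10.38 (-2.19), with Adamts1 (-1.36) and Adamts4 (-1.26). The others were the inhibitor Timp4 (-1.67) and the membrane metalloproteinase Adam15 (-0.71). Mmp9 and the osteoclast protease Ctsk (3.10) are also markers of osteoclasts. The median of that macrophage and osteoclast list was 6.62 to 6.82 in osteoblast arrays and 5.65 to 5.84 in endothelial arrays, with 3 of 13 higher in osteoblasts (6 without the tumor-free osteoblast replicate 3) and 1 in endothelial cells, the mannose receptor Mrc1 (-3.70).

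**Figure D3:**
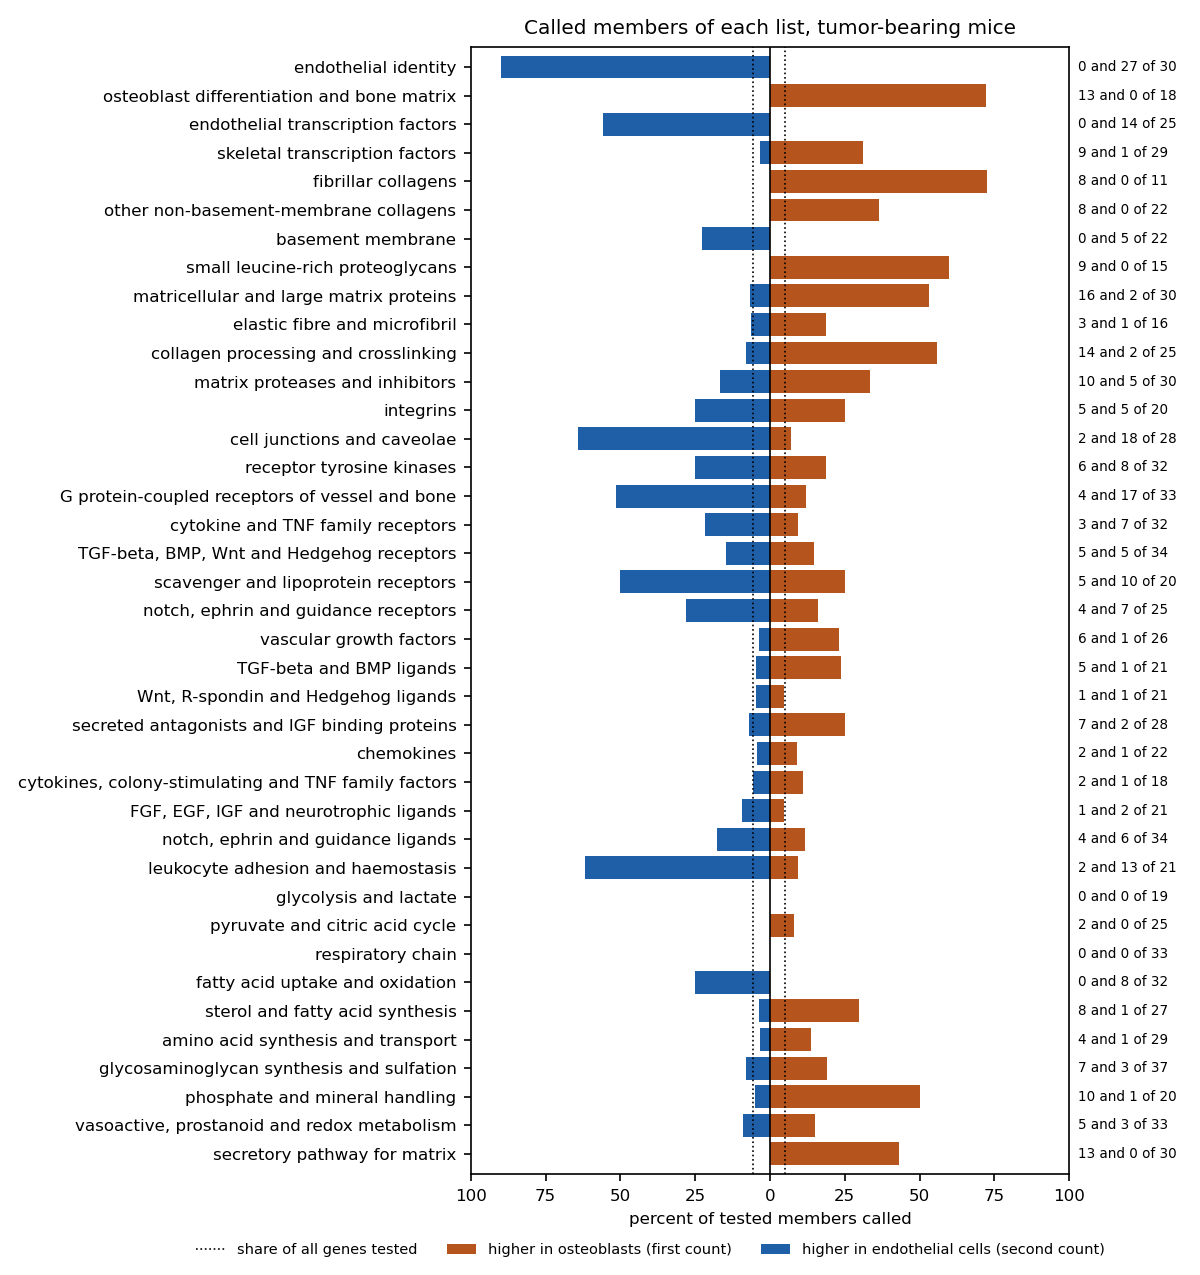
Percent of tested members (horizontal axis) of each gene list (1 per line) called higher in endothelial cells (bars to the left) or in osteoblasts (bars to the right), with the counts at the right and dotted lines at the share of all genes tested, 5.68% and 4.89%. Matrix lists extend further to the right, up to 8 of 11 fibrillar collagens, except the basement membrane list, with 5 of 22 to the left and 0 to the right. Junction, leukocyte adhesion and G protein-coupled receptor lists extend further to the left, up to 18 of 28 junction genes among them.

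Receptors were called more often on the endothelial side. Over 7 lists of adhesion, scavenger and signalling receptors and their accessory proteins, 59 of 194 tested genes were higher in endothelial cells (30.4%) and 32 in osteoblasts (16.5%). Receptor tyrosine kinases divided by ligand. The VEGF receptors Kdr (4.83, 4.66 and 4.92 against 10.43, 10.39 and 10.01), Flt1 (5.70, 5.68 and 5.78 against 10.20, 10.61 and 10.60) and Flt4 (-3.10), together with Tek, Tie1 (-1.97) and Ephb4 (-1.33), were higher in endothelial cells. The PDGF receptors Pdgfra (9.20, 8.84 and 9.26 against 7.08, 6.53 and 6.31) and Pdgfrb (1.66), the FGF receptors Fgfr1 (1.67) and Fgfr2 (2.28) and the collagen receptor Ddr2 (2.52) were higher in osteoblasts. No array of one cell type crossed the other in these 3 sets of per-array values. The list held 8 genes higher in endothelial cells and 6 in osteoblasts of 32 tested.

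The list of G protein-coupled receptors had 17 of 33 higher in endothelial cells and 4 in osteoblasts, or 2 without osteoblast replicate 2 or endothelial replicate 1 or 2. It also held genes of other kinds: Npr1 among the 17, and the accessory gene Ramp1 among the 4. The call of Ramp1 was lost in 3 of the 12 fits with 1 array missing (limma adjusted p from 0.0505 to 0.0927). Aplnr, the apelin receptor, was at 6.09, 6.12 and 6.74 against 10.35, 10.24 and 10.12 (-3.92). Calcrl, which with Ramp2 forms the adrenomedullin receptor, was at 5.57, 8.33 and 6.18 against 11.11, 11.16 and 11.06 (-4.41, SE 0.71), and Ramp2 differed by -2.57. Osteoblast replicate 2 was high for Calcrl but still below the endothelial arrays. Ackr1, an atypical chemokine receptor of venules (-3.42), and Gpr182, a sinusoidal receptor (-3.74), were on the same side. Pth1r, the parathyroid hormone receptor through which bone turnover is driven, was at 8.89, 9.27 and 8.52 against 6.49, 6.46 and 6.07 (2.56). S1pr3, a sphingosine 1-phosphate receptor, was also higher in osteoblasts (2.60).

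Among receptor chains of the interleukin 6 family, Lifr and Il6st were called on opposite sides. Il6ra (-0.03, limma adjusted p = 0.934) and Osmr (-0.77, 0.0752) did not pass. Lifr, the leukemia inhibitory factor receptor, was at 11.36, 11.32 and 11.21 in osteoblasts and 9.41, 9.19 and 8.91 in endothelial cells (2.13, SE 0.15). Il6st, the shared signalling chain gp130, was at 10.30, 10.08 and 10.04 against 12.11, 11.96 and 11.93 (-1.86, SE 0.10). The replicates of both genes lay close together, so that these moderate differences were large against their spread. Of 32 cytokine and TNF family receptors 7 were higher in endothelial cells, including Il13ra2, Csf2rb (-2.29), a chain of the receptors for GM-CSF and interleukins 3 and 5 that has a close copy in the mouse, and Tnfrsf10b, the TRAIL receptor (-1.59), and 3 in osteoblasts. TGF-beta, BMP, Wnt and Hedgehog receptors were balanced, with 5 and 5 of 34. Bmpr1a was at 7.41, 7.41 and 7.12 against 4.13, 4.49 and 4.91 (2.80), and Ptch1 (1.81), Lgr4 (2.03) and Lrp4 (2.33) were on its side. Eng, endoglin, was at 6.37, 6.19 and 6.22 against 9.67, 9.43 and 9.08 (-3.13), with Acvrl1 (-1.05) and Fzd4 (-3.28).

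Adhesion receptors and junctions separated the cell types further. The integrin list was even, with 5 of 20 higher in each cell type. Those in osteoblasts included Itgbl1, an integrin-like gene and not an integrin chain. Its call was lost in 4 of the 12 fits with 1 array missing (limma adjusted p from 0.0593 to 0.0721). The collagen receptors divided by chain: Itga11 (1.97) and Itga10 (1.82) were higher in osteoblasts, and Itga1 (7.56, 6.79 and 7.50 against 10.26, 9.61 and 9.58, a difference of -2.53) and Itga2 (-1.30) in endothelial cells. Of 28 junction and caveola genes 18 were higher in endothelial cells, such as Ptprb (-4.87), F11r (-4.40) and Cavin2 (-4.51). The 2 on the osteoblast side were the mesenchymal cadherins: Cdh11 was at 11.14, 11.22 and 10.97 against 9.27, 7.79 and 7.99 (2.76), and Cdh2 differed by 2.55. Scavenger receptors gave 10 of 20 in endothelial cells, or 6 without osteoblast replicate 2, and 5 in osteoblasts. Stab2, the hyaluronan clearance receptor of sinusoids, was at 5.95, 6.27 and 6.29 against 11.56, 11.32 and 10.98 (-5.12), while Vldlr (4.02) and Lrp1 (2.55), of the LDL receptor family, were higher in osteoblasts.

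Ligand genes, secreted or membrane-bound, were called on both sides: over 8 lists, 28 of 191 tested genes were higher in osteoblasts (14.7%) and 15 in endothelial cells (7.9%), with a median difference of 0.02. A further 47 ligand genes of these lists did not exceed the filter, 15 of them cytokine, colony-stimulating and TNF family genes. Whether the ligand and receptor lists differ from each other was not tested. Pdgfc was at 9.28, 9.61 and 8.72 in osteoblasts against 5.04, 5.28 and 5.70 in endothelial cells (3.86, SE 0.23). Pdgfb was at 6.47, 6.34 and 6.35 against 7.33, 7.38 and 7.17 (-0.90, adjusted p = 0.0122). Pdgfc and Pdgfb thus stood on opposite sides, without overlap. The PDGF ligands Pdgfa (0.58, limma adjusted p = 0.118) and Pdgfd (0.44, 0.551) did not pass. Ptn, pleiotrophin, was higher in osteoblasts (2.47). Vegfa was at 7.99, 8.02 and 8.15 against 7.30, 7.38 and 7.57 (0.64, SE 0.16, adjusted p = 0.0267), with no overlap. Its call was lost without osteoblast replicate 1, 2 or 3 or endothelial replicate 1 or 2 of the tumor-bearing mice (adjusted p from 0.0604 to 0.0899). The angiopoietins did not pass: Angpt1 was at 7.58, 6.80 and 6.44 against 6.91, 4.82 and 6.16, and Angpt2 at 6.92, 6.45 and 7.21 against 7.19, 8.70 and 6.84. In both, the groups overlapped.

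TGF-beta family ligands were on the osteoblast side in 5 of 21 cases and on the endothelial side in 1. Inhba, the activin A subunit, was at 10.11, 9.55 and 8.18 against 5.72, 6.10 and 6.00 (3.34, SE 0.43, adjusted p = 0.000555), and Inhbb, the activin B subunit, at 6.69, 6.47 and 6.11 against 7.27, 7.62 and 8.23 (-1.28, adjusted p = 0.0128). The activin subunits separated the cell types in opposite directions. Bmp5 (2.91), Tgfb3 (2.35) and Tgfb2 (1.33) were higher in osteoblasts, and the remaining member called there was Bmp1, the proteinase named above. Of 28 secreted antagonists and IGF binding proteins, 7 were higher in osteoblasts and 2 in endothelial cells. The former were led by the Wnt antagonists Sfrp4 (11.63, 11.53 and 11.14 against 9.25, 8.68 and 7.72, a difference of 2.88) and Wif1 (2.22). The count of 7 fell to 4, 4, 3 and 4 without osteoblast replicate 1 or endothelial replicate 1, 2 or 3, and that of 2 to 1 without osteoblast replicate 3, endothelial replicate 2 or 3, or tumor-free endothelial replicate 1 or 2. Of 21 Wnt, R-spondin and Hedgehog ligands 1 passed in each direction. Both were lost without single arrays: Rspo3, an R-spondin (1.503), in 6 of 12 fits, namely without any 1 of the 6 arrays of tumor-bearing mice (adjusted p from 0.0591 to 0.115), and Dhh, desert hedgehog (-0.38), in 8 of 12, among them those without osteoblast replicate 1 or 2 or any endothelial array (0.059 to 0.131).

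Of 34 Notch, ephrin and guidance ligands 4 were higher in osteoblasts and 6 in endothelial cells. Slit2, a repulsive guidance cue, was at 9.32, 8.64 and 9.31 in osteoblasts and 5.40, 4.73 and 5.16 in endothelial cells (3.99), and Slit3 differed by 1.48. Sema3a was at 7.42, 6.96 and 7.99 against 9.91, 10.53 and 10.24 (-2.77), and Sema6a (-2.81) and the Notch ligand Dll4 (-1.12) were also higher in endothelial cells. Semaphorins lay on both sides, since Sema5a was at 8.29, 8.47 and 8.22 in osteoblasts and 6.05, 5.35 and 5.87 in endothelial cells (2.57). Tnfsf10, which encodes the death ligand TRAIL, was at 4.90, 4.41 and 4.94 against 8.65, 8.91 and 8.86 (-4.06, SE 0.25). Cxcl9, an interferon-induced chemokine, was higher in endothelial cells (-1.68). The osteoclast factors Csf1 (1.51) and Tnfsf11, RANKL (0.61), passed in osteoblasts (adjusted p = 0.0366 and 0.0329), but not in 8 and 6 of the 12 fits that left out 1 array, those without osteoblast replicate 1, 2 or 3 included (highest adjusted p 0.124 and 0.108). Cxcl12, the marrow homing chemokine, was at 10.60, 10.49 and 10.15 against 10.46, 9.84 and 9.56 and did not pass (0.46, adjusted p = 0.483). Leukocyte adhesion and haemostasis genes lay in endothelial cells in 13 of 21 cases and in osteoblasts in 2, the clotting genes F5 and F3. The call of F3 was lost in 8 of the 12 fits with 1 array missing (limma adjusted p from 0.0558 to 0.114). Sele, E-selectin, was at 6.30, 6.13 and 6.22 against 10.76, 10.29 and 10.29 (-4.23), and Tfpi (-4.51) and Thbd (-2.95), which restrain clotting, were on its side.

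Ligands and receptors were then paired. Of 140 pairs written from textbook knowledge, 108 had both members tested, and in 28 both were called. In 10 of these the ligand was higher in osteoblasts and the receptor in endothelial cells: Vegfa with Kdr, Flt1 and Nrp1, Slit2 with Robo4 (-2.47), Ccl2 (1.26) with Ackr1, Thbs1 (2.43) and Thbs2 (1.53) with Cd36, Tnc with Itga9 (-1.56), and Col1a1 and Lum with Itga2. The reverse, from endothelial cells to osteoblasts, held for 2 pairs, Pdgfb with Pdgfrb and Dhh with Ptch1. Both members were higher in osteoblasts in 9 pairs, such as Pdgfc with Pdgfra, Fgf7 (2.07) with Fgfr2, Bmp5 with Bmpr1a and Ptn with Ptprz1 (4.30). Both were higher in endothelial cells in 7, such as Dll4 with Notch1 (-0.96) and Notch4 (-0.65), Sema3a with Nrp1 (-1.53), Tnfsf10 with Tnfrsf10b, and Mmrn2 with Cd93 (-4.36) and Clec14a (-3.05).

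The pairs are not independent, since 3 of the 10 rest on Vegfa and several share a receptor. Over the fits that left out 1 array, osteoblast-to-endothelial pairs numbered 6 to 11, endothelial-to-osteoblast pairs 1 to 3, pairs within osteoblasts 6 to 10 and within endothelial cells 7 to 8. Ccl2 lost its call without osteoblast replicate 1 or 3 or any endothelial array of tumor-bearing mice (adjusted p from 0.0561 to 0.0943). Among the 99 distinct ligands tested, 22.2% were higher in osteoblasts and 17.2% in endothelial cells, and among the 97 receptors 19.6% and 30.9%. In several families the receptor was called and the ligand was not: Apln was at a difference of -0.02 beside Aplnr at -3.92. Lif was at 1.66 (limma adjusted p = 0.0895) beside Lifr at 2.13, in the same direction, so that its missing call does not show equal levels. The converse also occurred, with Inhba at 3.34 beside its receptor Acvr2a at -0.59 and Postn at 5.86 beside Itgav at 0.93, neither of which passed. RNA levels of a ligand and a receptor in sorted cells do not show that a signal passes between them.

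**Figure D4:**
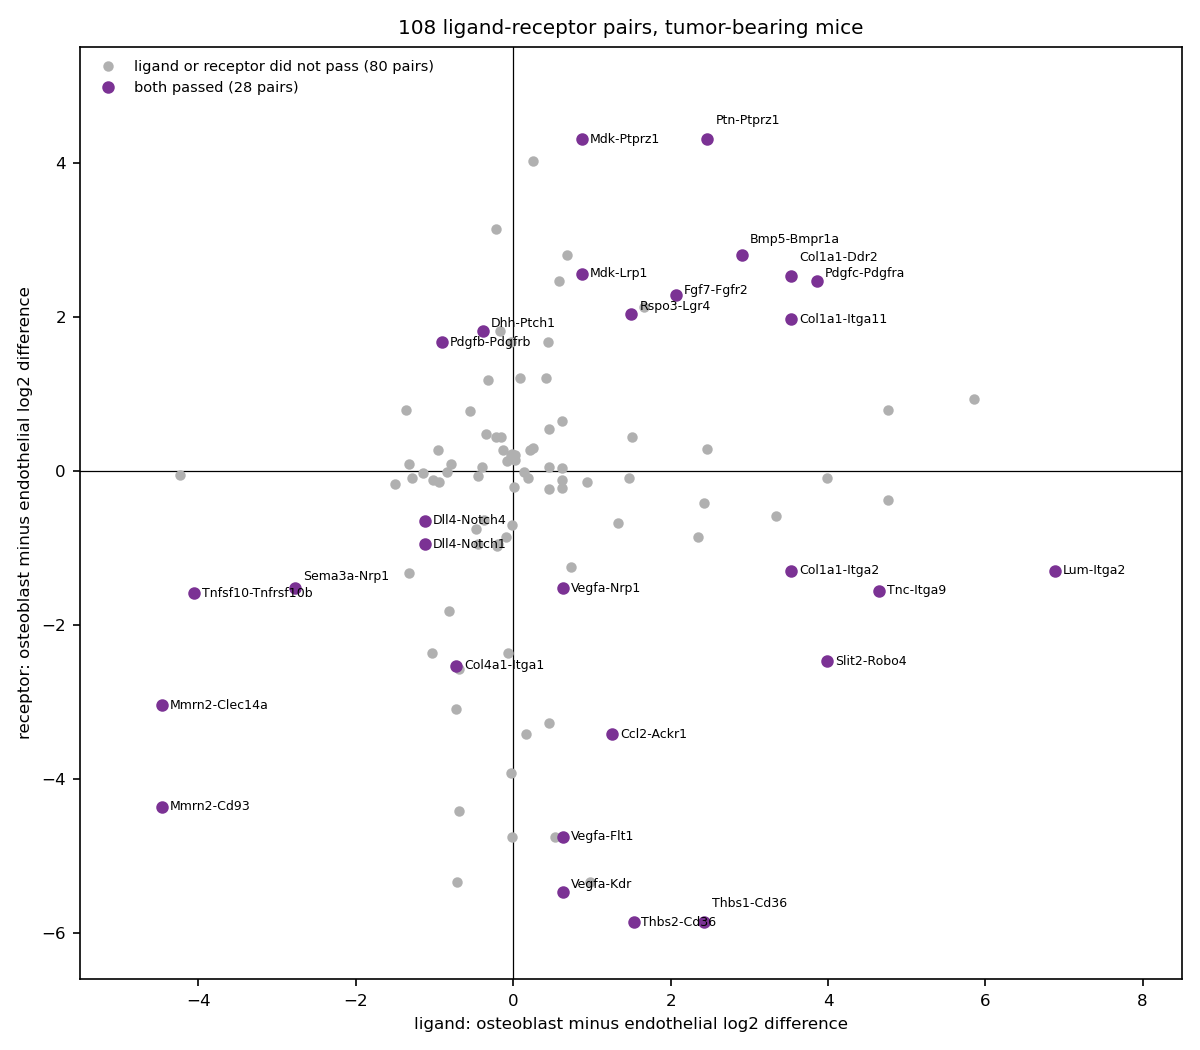
Each point is 1 of 108 ligand-receptor pairs, placed by the osteoblast minus endothelial log2 difference of the ligand (horizontal axis) and of the receptor (vertical axis) in tumor-bearing mice, with the 28 pairs in which both were called named and coloured. The lower right holds 10 such pairs with the ligand higher in osteoblasts and the receptor in endothelial cells, and the upper left 2.

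Over 9 lists of metabolic genes, 36 of 255 tested were higher in osteoblasts (14.1%) and 17 in endothelial cells (6.7%). Energy pathways gave few calls: by limma 0 of 19 glycolysis genes and 0 of 33 respiratory chain genes passed. At an unadjusted p under 0.05 were 8 of the 19 (6 of them higher in osteoblasts) and 4 of the 33. Over all 14217 genes tested, 3236 were under that value. The respiratory chain lay below that share and glycolysis above it, which was not tested. Pgk1 was at 10.12, 10.23 and 10.92 against 9.0006, 9.39 and 9.66 (1.07, adjusted p = 0.0701), without overlap, and Hk2, the first enzyme of the pathway, at 7.60, 7.61 and 6.91 against 5.72, 5.72 and 5.97 (1.57, adjusted p = 0.0644). Leaving out tumor-free osteoblast replicates 1, 2 or 3, whose arrays enter this difference through the common error term alone, gave 2, 4 and 1 glycolysis genes higher in osteoblasts, and leaving out endothelial replicate 3 gave 1 higher in endothelial cells. Leaving out endothelial replicate 1 gave 2 respiratory chain genes. In the citric acid cycle, 2 of 25 passed, Idh3a and Mdh1 (1.24 and 0.61), and neither passed without osteoblast replicate 3 or endothelial replicate 2 or 3 (adjusted p from 0.0511 to 0.101).

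Of 32 tested genes of fatty acid uptake and oxidation, 8 were higher in endothelial cells and 0 in osteoblasts (1 without osteoblast replicate 1). Cd36 was at 5.37, 5.33 and 5.76 in osteoblasts and 11.44, 11.52 and 11.10 in endothelial cells. Fabp4, a cytosolic fatty acid carrier, was at 7.33, 7.63 and 7.31 against 12.46, 12.40 and 12.14 (-4.91, SE 0.15). Lipg, endothelial lipase, was at 4.84, 5.51 and 5.05 against 10.47, 9.68 and 9.77 (-4.84), and Gpihbp1, which anchors lipoprotein lipase in capillaries, at 6.34, 6.14 and 6.22 against 9.87, 9.46 and 10.11 (-3.58). All were separated by at least 3 log2 units in each array. Pparg, the lipid-sensing transcription factor (-3.39), and the lipase Pnpla2 (-1.26) were also higher in endothelial cells. Among the 24 that did not pass, Cpt1a was at a difference of -0.02, Acadm at -0.31, Acadvl at 0.17 and Hadh at -0.09, all of them enzymes of oxidation. Fabp4 and Pparg are also adipocyte markers, and Adipoq, named above, was bright in both cell types.

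Of 27 sterol and fatty acid synthesis genes, 8 were higher in osteoblasts and 1 in endothelial cells. Scd1, which makes monounsaturated fatty acids, was at 8.08, 8.25 and 8.58 against 5.19, 5.11 and 5.43 (3.06, SE 0.36). Msmo1, a sterol oxidase, was at 7.12, 8.16 and 7.58 against 5.15, 5.501 and 5.45 (2.25), and Fads2 (1.83) and Acaca (1.03) followed. Elovl5, an elongase of polyunsaturated fatty acids, went the other way (5.45, 6.46 and 6.69 against 8.46, 8.21 and 8.38, -2.15). The count of 8 was 4 without osteoblast replicate 3, 4 without endothelial replicate 1 and 5 without endothelial replicate 3. Osteoblast replicate 3, the array highest in proliferation genes, was the highest osteoblast array for Scd1 and Acaca but not for Msmo1 and Fads2.

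Of 37 tested glycosaminoglycan synthesis and sulfation genes, 7 were higher in osteoblasts, 3 in endothelial cells and 27 did not pass. Ugdh, which makes the glucuronic acid of glycosaminoglycans, was at 10.35, 9.89 and 10.18 against 7.86, 7.05 and 5.98 (3.18), Uap1 of the hexosamine route differed by 2.02, and the extracellular sulfatase Sulf1 by 2.04. Sulf2, the other sulfatase of that kind, had the opposite direction (-0.92, adjusted p = 0.0462), and its call was lost in 11 of the 12 fits with 1 array missing, all but that without endothelial replicate 3 (highest adjusted p 0.141). Mineral handling had 10 of 20 higher in osteoblasts, including Alpl (4.03), Phex, Dmp1 (4.73), the mineralisation inhibitor Mgp (3.12) and the carbonic anhydrase Car3 (3.40). Entpd1 and Nt5e, enzymes of extracellular nucleotide breakdown, were called on opposite sides, and they do not stand for the other enzymes of that breakdown. Entpd1 (CD39), which strips ATP, was at 6.11, 7.02 and 7.51 in osteoblasts and 10.13, 10.31 and 10.38 in endothelial cells (-3.39, SE 0.37, adjusted p = 0.000171). Nt5e (CD73), which forms adenosine, was at 8.56, 8.36 and 7.98 against 5.75, 5.58 and 5.79 (2.59, SE 0.17, adjusted p = 4.47e-06). The successive enzymes thus had opposite directions with wide gaps. Without endothelial replicate 2, tumor-free osteoblast replicate 2 or 3, or tumor-free endothelial replicate 2, the mineral list had 2, 2, 3 and 2 members higher in endothelial cells in place of 1.

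Prostanoid and amino acid genes completed the metabolic lists. Ptgs2, cyclooxygenase 2, was at 10.12, 10.40 and 10.37 in osteoblasts against 5.58, 6.24 and 6.06 (4.34, SE 0.73), and the prostacyclin synthase Ptgis differed by 1.39. In endothelial cells Txnip, an inhibitor of thioredoxin, was higher (-1.61), while Nos3, endothelial nitric oxide synthase, was dim in both (6.10, 6.62 and 6.37 against 6.09, 6.12 and 6.07) and did not pass. The list had 5 and 3 of 33, or 3 in osteoblasts without osteoblast replicate 1 or 2 and 1 in endothelial cells without osteoblast replicate 1 or endothelial replicate 1. Glul, glutamine synthetase, was at 9.57, 9.99 and 9.20 against 11.05, 11.19 and 11.29 (-1.59). In osteoblasts 4 of 29 amino acid genes were higher, or 1 without endothelial replicate 1, led by Aldh18a1 of proline synthesis (1.01).

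Of 25 endothelial factors 14 were higher in endothelial cells and 0 in osteoblasts, among them Ets1 (-2.23), Ets2 (-2.72), Sox18 (-2.45), Nr2f2 (-2.64) and Hhex (-3.04). Hhex was at 7.11, 5.55 and 6.09 against 9.31, 9.02 and 9.53. Of 29 skeletal factors 9 were higher in osteoblasts and 1 in endothelial cells. The latter was Zfp521 (-1.56), whose call was lost without osteoblast replicate 2 or 3 or endothelial replicate 1 (adjusted p from 0.0712 to 0.0842). Those higher in osteoblasts included Sp7 (2.56), Dlx5 (2.55), Prrx1 (2.98) and Sox9, the cartilage factor (9.75, 10.14 and 8.96 against 7.19, 6.90 and 7.22, a difference of 2.51). Osteoblast replicate 3 was lowest in Sox9, as it was in the cartilage markers. Proliferation genes had 4 of 19 higher in osteoblasts, 2 without endothelial replicate 1. Top2a was at 9.33, 8.61 and 9.71 against 6.46, 7.28 and 7.12 (2.26), but a further, dimmer probe set of Top2a had a difference of -0.52.

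The same difference was measured in mice without tumor, on other arrays but in the same fit. Both comparisons share the estimate of spread of each gene, so that their calls are not independent. In tumor-free mice 1760 genes were called (12.4%). In both kinds of mice 1056 were called in the same direction, which is 70.3% of the calls with tumor and 1056 of the 1760 without. Called in opposite directions were 0. Of the 1503 genes called in tumor-bearing mice, 1458 had the same sign in tumor-free mice. Across the 14217 genes, which are not independent, the differences correlated at r = 0.828. Medians of gene lists stood as follows in tumor-bearing and tumor-free mice: 1.13 and 1.52 for fibrillar collagens, 2.48 and 3.91 for small leucine-rich proteoglycans, and -2.87 and -2.93 for endothelial identity genes. Not every list kept its side: marrow stromal niche and adipocyte markers had medians of -0.05 and 0.92. Of those 15 markers, 0 with tumor and 10 without were higher in osteoblasts, and 3 and 2 in endothelial cells. Differences between these medians were not tested.

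The change of the difference itself passed in 4 genes (0.0281%), with 920 at an unadjusted p under 0.05. Chil1, a chitinase-like secreted protein, was at 9.83, 10.11 and 9.13 in osteoblasts and 6.15, 6.23 and 6.39 in endothelial cells of tumor-bearing mice, and at 6.19, 6.08 and 6.84 and 6.15, 6.33 and 6.35 in tumor-free mice. It was thus separated in tumor-bearing mice and overlapped in tumor-free mice (differences of 3.43 and 0.09, limma adjusted p of the change 0.0179). For Mmp13 the difference was 4.83 with tumor and 7.05 without. Its endothelial arrays were at 7.53, 6.96 and 7.40 with tumor and 5.40, 4.93 and 5.00 without, and the osteoblast arrays at 12.02 to 12.31 in both. Amy1, an amylase with close copies, showed a similar pattern (0.88 and 3.51), and Exosc7, an RNA exosome subunit, had 0.29 and -1.19. These 4 calls were not stable when single arrays were left out: Amy1 passed in 5 of 12 such fits, Chil1 in 6, Mmp13 in 4 and Exosc7 in 2, and 0 genes passed at all without endothelial replicate 1 or 3 of tumor-bearing mice, tumor-free osteoblast replicate 1 or tumor-free endothelial replicate 2. Of the 447 genes called in tumor-bearing mice alone, 1 had a change that passed, so that for the others a missing call in tumor-free mice is not shown to be a difference. Several ligands called in tumor-bearing mice had wider or narrower differences in tumor-free mice without passing the test of the change: Fgf7 had 2.07 and 4.57, and Inhba 3.34 and 1.39.

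**Figure D5:**
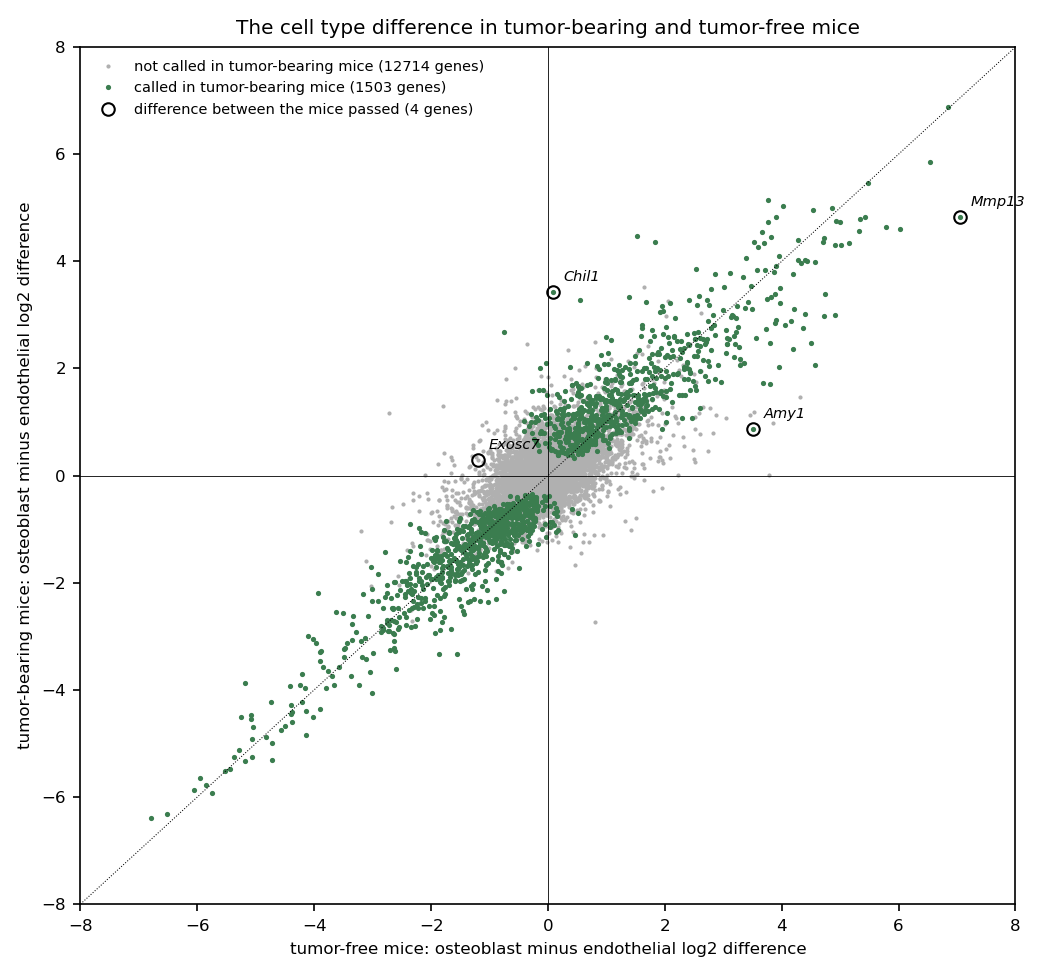
Osteoblast minus endothelial log2 difference of each of 14217 genes in tumor-free mice (horizontal axis) and tumor-bearing mice (vertical axis), with the 1503 genes called in tumor-bearing mice in green and the dotted line at equal values. The 4 circled genes, Chil1, Mmp13, Amy1 and Exosc7, are those whose difference changed between the mice by limma.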

How the data were processed

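The authors deposited log2 intensities of Affymetrix Mouse Gene 1.0 ST arrays. The submitters' processing notes name the affy package, whose settings no source used here records. The values were used as deposited. Of 34760 probe sets, 21640 had a single gene symbol, 1321 several and 11799 none. Symbols came from the platform annotation and were updated through Entrez identifiers with RefSeq (GRCm38.p6), which matched 21553. The brightest probe set by mean represented a gene. A gene was tested if it exceeded the array's 40th percentile in at least 3 of 12 arrays. The limma package (version 3.58.1, lmFit and eBayes, R 4.3.3) fitted 4 group means over the 12 arrays, so that all groups share 1 estimate of spread. Tables and figures used Python 3.11.15, pandas 2.3.3 and matplotlib 3.10.9. The script was tested on simulated data. The labels call the replicates biological. Nothing in the labels used here ties them to separate mice, so p-values measure the spread between these arrays, and the number of arrays limits the precision.

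The comparison and the gene and pair lists were chosen with earlier results of these data known. Of 1254 genes in the lists and pairs, 1058 were tested, 117 were below the filter and 79 had no single-symbol probe set, among them Runx2, Bglap and Spp1. Genes were named by rule: the 12 widest called differences per direction without overlap, up to 6 members per direction of each list by p-value, members that did not pass as values, ligands and receptors of the pairs, up to 6 genes per direction whose difference changed most between the mice, and fixed markers. Other settings tried were median centring, quantile normalization, a 60th percentile filter or none, means of probe sets, eBayes with trend and robust, array weights, a model of only both groups compared, a block for the replicate number, a log2 difference of at least 1, and leaving out each array.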

Additional observations from a re-analysis of the deposited data

Results flagged for a closer look

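In 4 genes the osteoblast minus endothelial difference itself differed between tumor-bearing and tumor-free mice by limma. For Chil1 the change was 3.34 and for Exosc7 1.48, while it was -2.64 for Amy1 and -2.22 for Mmp13. Their adjusted p-values were 0.0179, 0.0472, 0.0179 and 0.0179. For Chil1 it was the osteoblast arrays that differed between the mice (9.13 to 10.11 with tumor, 6.08 to 6.84 without), and for Mmp13 and Amy1 the endothelial arrays (for Amy1 7.995 to 8.10 with tumor and 5.04 to 5.85 without). In Exosc7 the endothelial arrays were at 6.84 to 6.95 with tumor and 7.75 to 7.93 without.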

How the results depend on the processing

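Among the named called genes, 0 changed direction in those of the 22 alternatives that tested them. Of 280 named called genes, 210 were called in each of them and 70 were lost in at least 1, of which 35 were lost when the model held only the groups compared (1243 genes called in all). Requiring a log2 difference of at least 1 left 1000 called genes, 514 of them higher in endothelial cells, and 1130 in tumor-free mice. Leaving out 1 array gave 1147 to 1594 called genes, 501 to 744 higher in osteoblasts and 608 to 866 higher in endothelial cells, 1241 to 1845 in tumor-free mice, and 0 to 7 for the change between the mice. Arrays of the same replicate number did not deviate together (correlations of -0.016, -0.004 and -0.052 in tumor-bearing mice). With the replicate number as a block, 1402 genes were called, 11 named genes were lost, Vegfa among them (adjusted p = 0.0504), and 1 gene passed for the change. Of 102 counts of list members, 33 moved by over 1.5 times in an alternative that kept all arrays.

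Small uncalled differences changed sign without single arrays: Acadm ranged from -0.62 to 0.21, Apln from -0.0826 to 0.0428, Cpt1a from -0.24 to 0.11, Hadh from -0.36 to 0.0847 and Adipoq from -0.29 to 0.29 (-0.0188 under quantile normalization). Dim signals limit low genes, and a gene below the filter was not tested. The amplification from 5000 cells, the unstated number of mice and the markers of cartilage, stromal and other cells in the sorted samples limit what a difference can be assigned to.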
